A study of Mus musculus with 6 samples.

Results

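The cartilage collagens are the chains of the fibril-forming collagens II, XI and XXVII, of the fibril-associated collagen IX and of the hypertrophic collagen X. They were followed through the genes Col2a1, Col9a1, Col9a2, Col9a3, Col10a1, Col11a1, Col11a2 and Col27a1, taken by name from the probe sets of a whole-transcript array whose identifiers are RefSeq transcripts. All 8 genes were measured, of 19932 genes with a symbol, through 9 probe sets. Nasal septum chondrocytes came from untreated wild-type ICR mice at embryonic day 17.5 (n = 3), and rib chondrocytes from untreated wild-type ICR mice at postnatal day 1 (n = 3). The labels call the samples of a group biological replicates and do not say how many animals each holds. The nasal samples are both another cartilage and younger than the rib samples, and site and age cannot be told apart. The labels give chondrocytes as the cell type of both groups but name the septum as the source of the nasal samples, and do not describe how cells were isolated, so a difference in isolation cannot be told apart either. The comparison made here asks whether the collagens that build cartilage stand at different transcript levels in the 2 cartilages.

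Collagen II forms the bulk of the thin fibrils of cartilage, and each molecule is a helix of identical chains made from Col2a1. Collagen XI lies in the core of the same fibrils and limits their width, and its α3 chain is also a product of Col2a1. Collagen IX sits on the fibril surface and is built from the products of Col9a1, Col9a2 and Col9a3. Collagen X is a short network-forming collagen of hypertrophic chondrocytes, the enlarged cells of cartilage about to mineralise, and collagen XXVII is a fibrillar collagen found around growth plate chondrocytes. The transcription factor Sox9 and its partners Sox5 and Sox6 bind enhancers of several of these genes.

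Both sets of samples carried the markers of chondrocytes. The 8 chondrocyte markers summed to 67678 to 68533 intensity units in the nasal samples and to 61750 to 68698 in the rib samples. Of these 8, 1 was higher in nasal (Chst11), 2 were lower (Comp and Sox9) and 5 did not pass, where higher and lower mean an adjusted p below 0.05 in limma. Over all genes, 13.8% were higher and 14.7% lower in nasal. Of 7 skeletal muscle markers 2 were lower in nasal, and of 5 endothelial markers 2 were higher in nasal. Their sums ran from 1249 to 1550 in nasal and 1761 to 2110 in rib for muscle, and from 741 to 1107 in nasal and 515 to 611 in rib for endothelium. The muscle markers lower in nasal were Tnnt3 (322 in nasal and 764 in rib) and Acta1 (237 and 356). Of the 5 that did not pass, Ckm was at -0.03 (log2, nasal minus rib). Myog (0.46), Myh8 (0.33), Myh3 (0.22) and Des (0.05) were above 0, and the median difference of the muscle list was 0.05. The endothelial markers stood at 125 to 219 in nasal and 64.8 to 141 in rib, where array medians ran from 209 to 261. Whether background at such dim values contributed to these sums was not tested. In the other lists 2 of 8 perichondrial and fibroblast markers and 1 of 4 erythroid markers were lower in nasal, 2 of 7 osteoblast and 2 of 6 glial and neuronal markers were higher, 2 of 7 epithelial markers were higher and 1 lower, and none of 6 macrophage and osteoclast markers passed. Sums also lay apart for osteoblast markers, at 1825 to 1930 in nasal and 1309 to 1482 in rib. Glial and neuronal markers (1076 to 1246 in nasal, 819 to 952 in rib) and macrophage and osteoclast markers (1132 to 1455, 909 to 1093) did likewise. The lowest of these markers stood below the array medians. They were at 129 in nasal and 143 in rib for osteoblast, and at 58.9 and 49.3 for glial and neuronal markers. Macrophage and osteoclast markers went down to 66.15 in nasal and 53.92 in rib. The 25th percentile was 139.6 in nasal replicate 1 and 87.3 to 108.3 on the other arrays. Whether background contributed to these sums was not tested either. The sums of the perichondrial and fibroblast, erythroid and epithelial lists overlapped. Fewer cells of a type and less RNA per cell cannot be told apart in such samples, and the part of other cells in the collagen values was not tested.

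None of the 8 collagen genes passed the test between the cartilages (limma, Benjamini-Hochberg adjusted p below 0.05 over all genes). Their log2 differences, nasal minus rib, lay between -0.26 and 0.03, the lowest being -16.4% for Col9a3. For comparison, 28.5% of all genes passed, 14.7% as lower in nasal, and 40.1% of the 1423 genes at least as bright as the dimmest of the collagens passed. At an unadjusted p below 0.05, 3 of the 8 were lower in nasal and 0 were higher, where 19% of all genes were lower. Those 3 genes were Col2a1, Col9a3 and Col11a2. In each of them the 3 nasal values lay below the 3 rib values, which was also so for 21.7% of all genes and for 28.7% of the genes of that brightness. The other 5 overlapped between the cartilages.

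**Figure D1:**
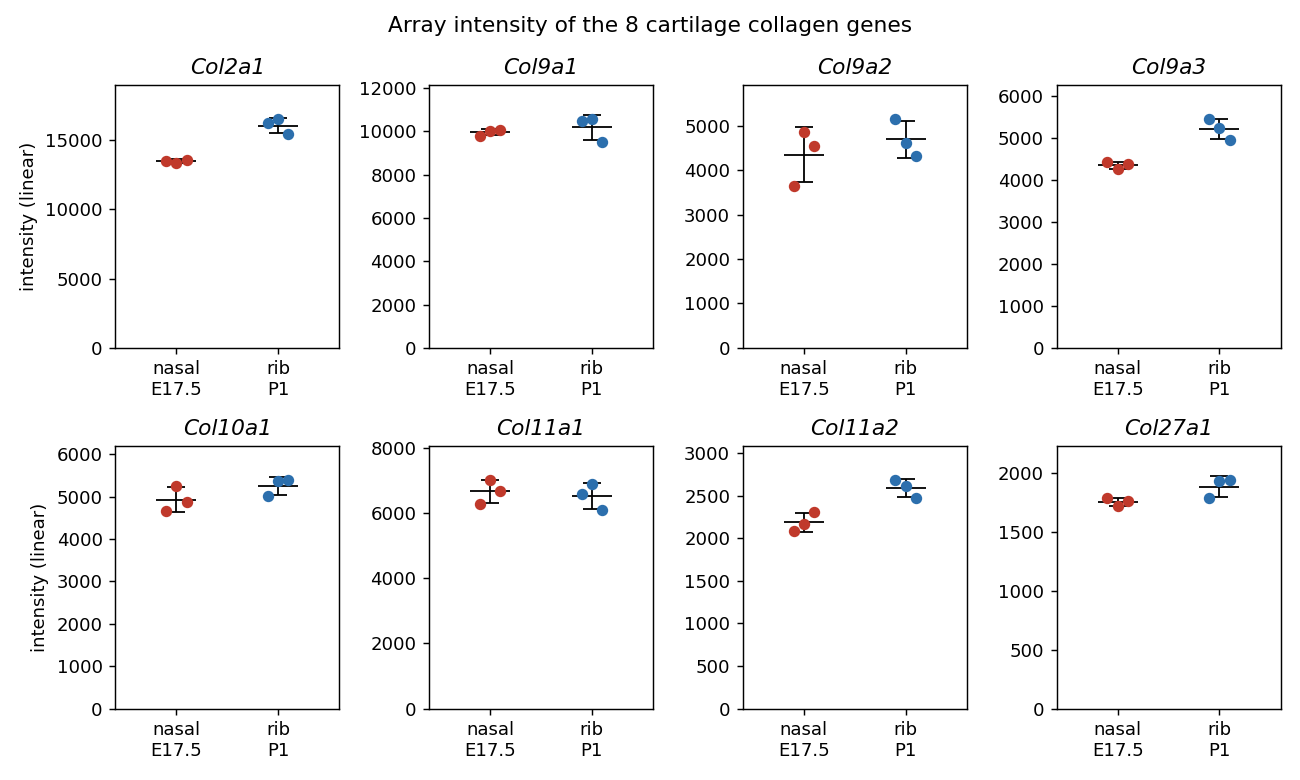
Array intensity on a linear scale (vertical axes from 0) of the 8 cartilage collagen genes in the 3 nasal E17.5 samples (red, left) and the 3 rib P1 samples (blue, right). Bars give the mean and SD. The nasal points of Col2a1, Col9a3 and Col11a2 sit below the rib points, and the points of the other 5 genes overlap.

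The median difference of the 8 genes was -0.11 on the log2 scale. The median over all genes was 0.11, and over the genes of at least that brightness 0.04. Of the 8 differences 7 were negative, against 45.3% in the genes of that brightness. The share was 38.2% over all genes and 56.8% over the genes above the median gene in mean level. How far the small negative values reach depends on where each array is centred. When arrays were centred on the median of the brighter genes, those above the median gene in mean level, the median of all genes moved to 0.24 and that of the collagens to 0.02. Quantile normalization and cyclic loess brought the median of all genes to -0.0015 and 0.0074, and with them that of the collagens was -0.16 and -0.20.

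**Figure D2:**
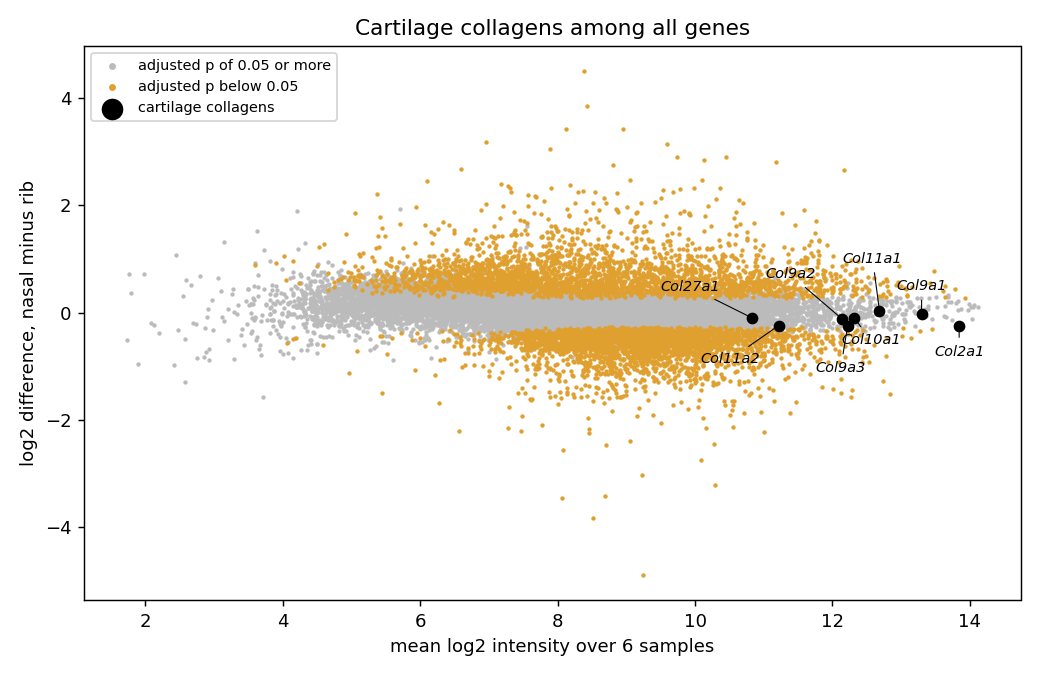
Difference between the cartilages (log2, nasal minus rib, vertical axis) against the mean log2 intensity over the 6 samples (horizontal axis) for 19932 genes, with genes past the adjusted p of 0.05 in orange. The 8 collagens (black) lie at the bright end and between -0.26 and 0.03, among genes that did not pass.

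Col2a1, the gene of collagen II, gave 13494, 13309.9 and 13585 in the nasal samples, against 16220.2, 16495 and 15402 in the rib samples. All nasal values were therefore below all rib values, and the nasal samples were the more alike, with a mean of 13463 ± 140.0 in nasal and 16039 ± 569 in rib (SD, n = 3 each). The log2 difference was -0.25 (SE 0.08, limma adjusted p = 0.0599), which is a difference of -16.0% from rib with a 95% interval of -26.6% to -3.91%. This interval, like those of the genes below, is taken gene by gene. It is not adjusted for the number of genes tested, so it can leave out 0 where the adjusted p does not pass. The probe set was among the brightest of the arrays. It reached 68.5% to 86.7% of the array maximum, with 30 to 32 probe sets brighter in the nasal samples and 4 to 8 in the rib samples. Whether its differences were compressed at this brightness was not tested. The second Col2a1 probe set, for another RefSeq transcript of the gene, differed from the first by 0.0401% to 0.454% in every sample, so the 2 transcripts were not resolved. Col2a1 passed as lower in nasal under 6 of 17 alternatives, of which 11 changed the processing and 6 left out 1 sample each, with adjusted p from 0.00184 to 0.250 over all of them. The difference was -0.48 after cyclic loess and -0.40 after quantile normalization, but -0.13 when centred on the brighter genes.

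Of the 3 genes of collagen IX, Col9a3 had its groups apart while Col9a1 and Col9a2 overlapped. Col9a1 encodes the α1 chain, which in its long form carries the large globular end that projects from the fibril. It gave 9790.1, 10013 and 10064 in nasal and 10469, 10553 and 9524 in rib. The highest nasal value thus fell inside the rib range, and the log2 difference was -0.03 (SE 0.09, limma adjusted p = 0.808), with an interval of -15.1% to 12.9%. Centring on the brighter genes turned the sign (0.095).

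Col9a2, the gene of the α2 chain, gave 3648, 4862 and 4543 in nasal and 5146, 4601 and 4325 in rib. Its spread among nasal samples was the widest of the 8 genes, with an SD of 0.22 on the log2 scale, set by nasal replicate 1. The log2 difference was -0.12 (SE 0.13, limma adjusted p = 0.542), with an interval of -26.0% to 15.1%. Without nasal replicate 1 the difference was 0.0065, and centring on the brighter genes gave 0.010.

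Col9a3, the gene of the α3 chain, gave 4432, 4267 and 4385 in nasal and 5457, 5244 and 4966 in rib. Here the groups were apart, with 4361 ± 85.1 in nasal and 5222 ± 246 in rib (SD, n = 3 each). The log2 difference was -0.26 (SE 0.09, limma adjusted p = 0.0613), or -16.4% with an interval of -27.3% to -3.92%. Like Col2a1 it passed under 6 of 17 alternatives, with adjusted p from 0.00770 to 0.249, and its sign held in all 17.

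Collagen XI joins the product of Col11a1 with that of Col11a2. The windows around the RefSeq start sites of these partner genes, from 250 bases before to 50 after, are shown because the partners differed in their values. Capitals mark matches on either strand to 4 short motifs. TATAAA is the TATA box found just upstream of many start sites. Sox proteins bind the core ACAATG, and they are also known to bind a variant of that core, which was searched for here as ACAAAG. The core bound by Runx proteins is TGTGGT.
Col11a1 (GRCm38.p6 chr3:114030290-114030589, + strand): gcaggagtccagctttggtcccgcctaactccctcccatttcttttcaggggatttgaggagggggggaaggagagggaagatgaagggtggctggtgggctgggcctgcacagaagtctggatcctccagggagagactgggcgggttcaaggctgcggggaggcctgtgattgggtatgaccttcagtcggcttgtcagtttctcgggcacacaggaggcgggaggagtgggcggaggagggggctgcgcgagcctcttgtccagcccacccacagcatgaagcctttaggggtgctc
Col11a2 (GRCm38.p6 chr17:34038888-34039187, + strand): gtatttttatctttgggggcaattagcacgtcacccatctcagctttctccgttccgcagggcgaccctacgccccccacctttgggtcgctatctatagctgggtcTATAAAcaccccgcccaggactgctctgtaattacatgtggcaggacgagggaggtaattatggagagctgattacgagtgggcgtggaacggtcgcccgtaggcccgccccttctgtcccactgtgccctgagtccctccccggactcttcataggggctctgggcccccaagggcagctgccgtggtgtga
The Col11a1 window held no match. The Col11a2 window held 1, a TATAAA whose first base lies 143 bases before the start site of the window. The outermost start annotated for Col11a2 is 219 bases upstream of that site, so the TATAAA lies 76 bases downstream of it. For Col11a1 the outermost start is 61 bases upstream of the start site of the window. These windows had 62.3% and 59% G and C, where the median over 32851 RefSeq windows was 52.7%. On either strand, TATAAA occurs in 13.6% of those windows. The Sox cores occur in 12.6% of them for ACAATG, and for the other form, ACAAAG, in 18.7%. The Runx core TGTGGT occurs in 16.8%. The motifs were chosen with the collagen values known, and a match is a run of letters and not a measured site.

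Col11a1 gave 6282, 7009 and 6679.6 in nasal, against 6578, 6870.5 and 6094 in rib. The nasal and rib values interleaved, and the log2 difference of 0.03 (SE 0.09, limma adjusted p = 0.818) had an interval of -12.4% to 19.3%. Its sign turned after quantile normalization (-0.027), cyclic loess (-0.094) and median centring (-0.027).

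Col11a2 gave 2081, 2170.6 and 2308 in nasal, against 2683, 2612 and 2472 in rib. The nasal values again lay wholly below the rib values, at 2186 ± 114 in nasal and 2589 ± 107 in rib (SD, n = 3 each). The log2 difference was -0.24 (SE 0.09, limma adjusted p = 0.0837), or -15.6% with an interval of -27.1% to -2.28%. It passed under 5 of 17 alternatives, with adjusted p from 0.0179 to 0.310.

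Col10a1 encodes the single chain of collagen X. Its window is shown because, of the 7 windows available for 6 of the genes, it alone matched more than 1 of the motifs, with TATAAA beginning 32 bases before the start site and ACAAAG beginning 185 bases before it.
Col10a1 (GRCm38.p6 chr10:34389731-34390030, + strand): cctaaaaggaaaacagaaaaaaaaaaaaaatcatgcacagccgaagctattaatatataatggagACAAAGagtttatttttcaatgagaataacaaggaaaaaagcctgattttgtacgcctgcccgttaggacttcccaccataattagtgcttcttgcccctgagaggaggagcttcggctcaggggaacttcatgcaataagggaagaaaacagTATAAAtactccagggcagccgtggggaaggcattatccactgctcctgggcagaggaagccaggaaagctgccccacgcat
The windows of Col9a1, at each of its 2 RefSeq starts, of Col9a2, and of Col27a1, at a start 1403 bases inside the gene, held none of the 4 motifs, which says only that these letters are not in them. Matches of different motifs did not overlap in any of the windows.

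Col10a1 gave 4668, 5249.9 and 4863 in nasal, against 5016, 5363 and 5390.4 in rib. Nasal replicate 2 exceeded rib replicate 1, so the groups overlapped. The log2 difference was -0.09 (SE 0.09, limma adjusted p = 0.459), with an interval of -19.3% to 8.71%, and it passed under none of the 17 alternatives. Centring on the brighter genes turned the sign (0.031). The values of other hypertrophic markers stand beside this one. Of 9 in the list 3 were lower in nasal, 2 were higher and 4 did not pass. Those lower were the osteopontin gene Spp1 (4351 in nasal and 12414 in rib), Ihh (-0.45, SE 0.11) and Mef2c (-0.45, SE 0.10). Those higher were the bone sialoprotein gene Ibsp (1211 in nasal and 294 in rib) and Alpl (0.48, SE 0.09). The 9 summed to 10321 to 11379 in nasal and 18200.4 to 19481 in rib, and the gap was that of Spp1: without it the other 8 summed to 6526 to 6620.0 in nasal and 6404 to 6574 in rib. These other 8 were not level gene by gene, since genes higher and genes lower in nasal offset each other in the sum.

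Col27a1 encodes the chain of collagen XXVII. It gave 1788, 1724 and 1763 in nasal, against 1787, 1934 and 1944 in rib. The highest nasal and the lowest rib value all but coincided, and the log2 difference was -0.10 (SE 0.09, limma adjusted p = 0.395), with an interval of -18.9% to 7.13%. It passed under none of the 17 alternatives, and its sign turned when centred on the brighter genes (0.024).

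**Figure D3:**
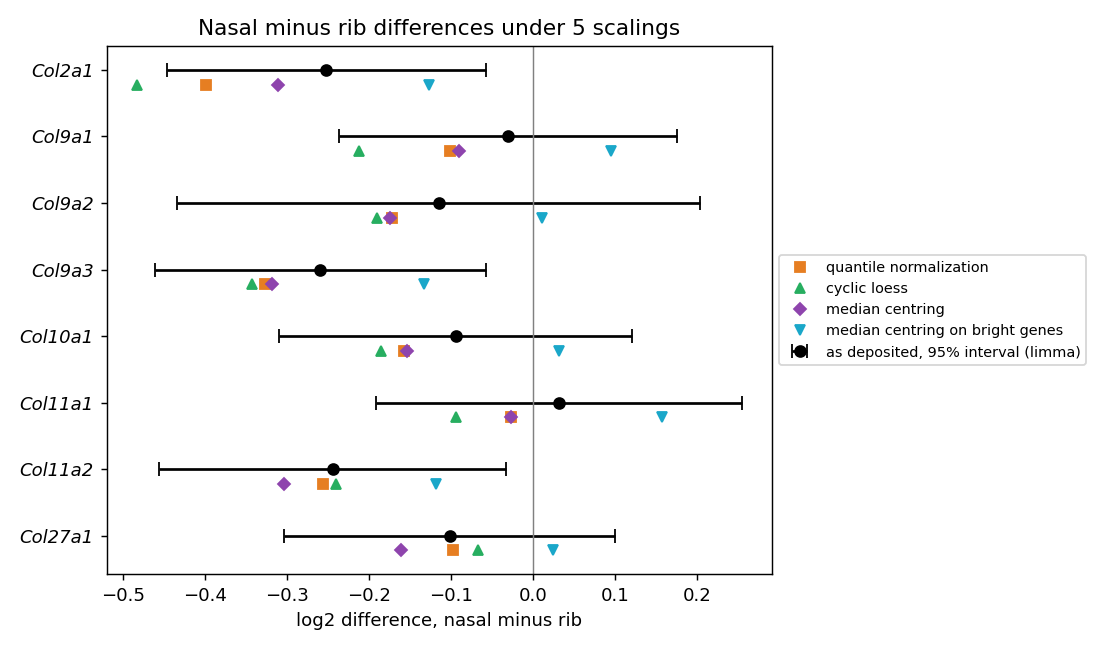
Log2 difference, nasal minus rib (horizontal axis), of each collagen gene on the values as deposited, with the unadjusted 95% interval from limma (black), and under 4 other scalings of the arrays (coloured marks). The marks of Col2a1, Col9a3 and Col11a2 stay left of 0 throughout, while those of the other genes fall on either side of it.

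Sample by sample, the 3 genes with separated groups had nearly the same profile. Each gene's log2 values were set relative to its own mean over the 6 samples, and the profiles were compared by their root mean square difference. This distance includes the difference between the groups, by which the 3 genes were picked out. Their closeness therefore follows in large part from that choice and is not separate evidence that they vary together. Col2a1 and Col9a3 were the closest of the 28 pairs at 0.0269, followed by Col11a2 with Col2a1 at 0.0447 and with Col9a3 at 0.0497. Next came Col11a1 with Col9a1, at 0.0503. The farthest pair was Col27a1 and Col9a2 at 0.179. Within rib, replicate 3 was the lowest sample for Col2a1, Col9a1, Col9a2, Col9a3, Col11a1 and Col11a2, but the highest for Col10a1 and Col27a1.

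**Figure D4:**
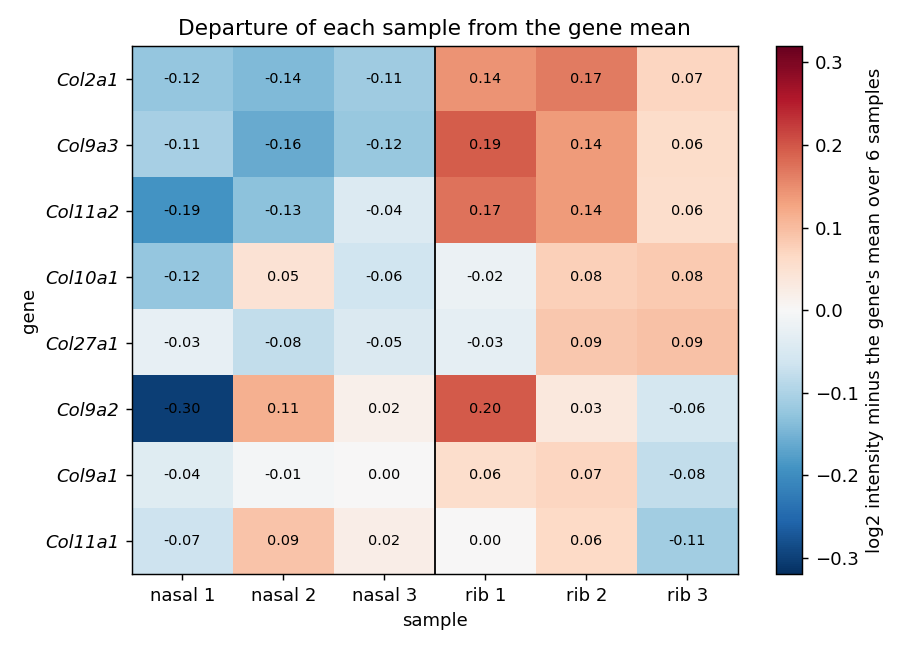
Log2 intensity of each collagen gene (rows) in each sample (columns, nasal left of the line and rib right of it), minus the gene's mean over the 6 samples. The top 3 rows are negative in every nasal sample and positive in every rib sample, and Col9a2 has the lowest cell, -0.30 in nasal replicate 1.

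The log2 ratio of 2 chains within an array does not depend on the scaling of that array by a constant, and it was compared between the cartilages for 8 pairs. The Col11a1 over Col11a2 ratio was 0.28 higher in nasal, at 1.61 ± 0.08 in nasal and 1.33 ± 0.06 in rib (SD, n = 3 each), with no overlap. The Col9a1 over Col9a3 ratio was 0.23 higher, at 1.19 ± 0.04 in nasal and 0.96 ± 0.04 in rib. The Col11a1 over Col2a1 ratio was 0.28 higher and the Col27a1 over Col2a1 ratio 0.15 higher, both without overlap. The Col11a2 over Col2a1 ratio differed by 0.01, with -2.62 ± 0.07 in nasal and -2.63 ± 0.03 in rib. Quantile normalization and cyclic loess, which do not scale an array by 1 constant, moved that difference to 0.14 and 0.24, and leaving out 1 sample gave -0.025, without nasal replicate 3, to 0.044, without nasal replicate 1. The remaining pairs, Col9a1 over Col9a2 (0.08), Col9a2 over Col9a3 (0.14) and Col10a1 over Col2a1 (0.16), overlapped. Leaving out 1 sample moved Col9a1 over Col9a2 between -0.025, without nasal replicate 1, and 0.17, without nasal replicate 2, and Col9a2 over Col9a3 between 0.043, without nasal replicate 2, and 0.28, without nasal replicate 1. Col10a1 over Col2a1 fell to 0.10 without nasal replicate 2. The pairs were described by their values and overlap and none was called: an exact two-sided permutation test of 3 against 3 samples cannot go below 0.1, and no other test of the ratios was run. Ratios without overlap were also found for 70.4% of all 1011753 pairs of genes at least as bright as Col27a1, against 4 of the 8 pairs here. These ratios compare the samples and do not give the proportion of the chains, since probe sets differ in brightness for the same amount of RNA.

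**Figure D5:**
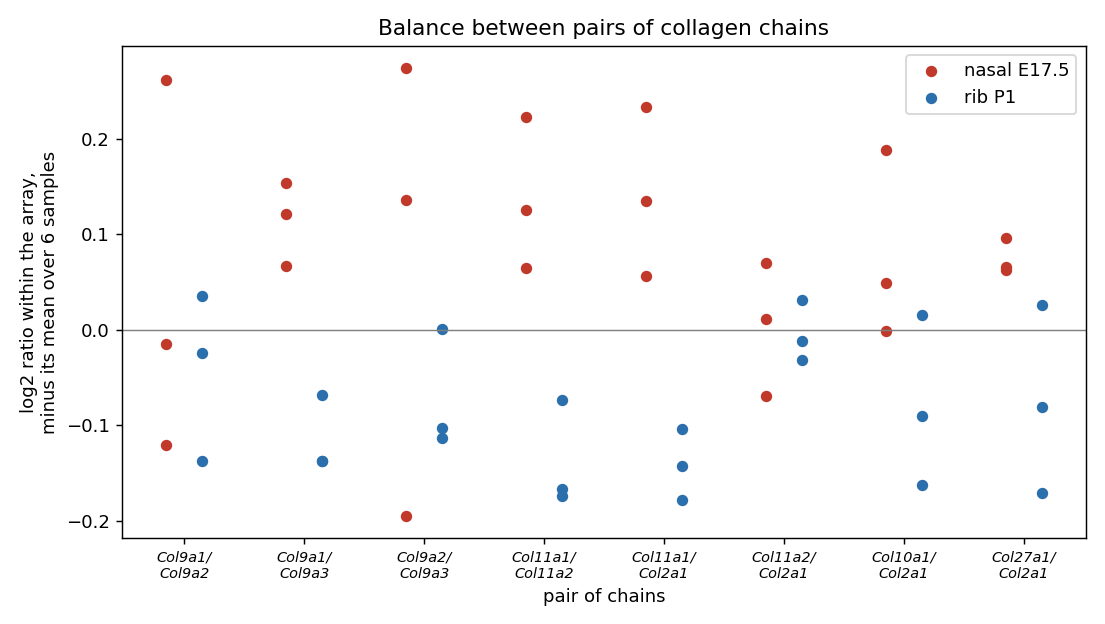
Within-array log2 ratio of 8 pairs of collagen chains, minus its mean over the 6 samples (vertical axis), in nasal E17.5 (red) and rib P1 (blue) samples. The red points lie above the blue points for Col9a1/Col9a3, Col11a1/Col11a2, Col11a1/Col2a1 and Col27a1/Col2a1, and the points of Col11a2/Col2a1 overlap around 0.

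Among 9593 other genes of more than median brightness, the 2 nearest profiles over the 6 samples lay closer to each collagen than any other collagen did. With far more candidates than collagens, and 6 values to a profile, this was all but fixed in advance. It does not tell whether the collagens vary together. For Col2a1 they were Ess2 (root mean square difference 0.0140) and Tulp4 (0.0156), and for Col9a3 Gtf2h5 (0.0201) and Tbcel (0.0226). For Col11a2 they were Fxr2 (0.0139) and Fhl3 (0.0182), and for Col11a1 Phf20l1 (0.0202) and Clta (0.0215). Col9a1 was nearest to Dcun1d3 (0.0153) and Snd1 (0.0157), and Col9a2 to Slc8a3 (0.0316) and Fam162a (0.0340). Col10a1 was nearest to Rac1 (0.0186) and Rnf103 (0.0242), and Col27a1 to Dennd4c (0.0126) and Pcsk7 (0.0152). The median distance of a gene from each collagen ran from 0.187 to 0.241.

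Genes related to the cartilage collagens were read in 6 lists, beside the 13.8% higher and 14.7% lower of all genes. Of 14 transcription factors known to act on cartilage collagen genes 5 were lower in nasal, 1 was higher and 8 did not pass, with a median difference of -0.25. Sox9 had 7548 in nasal and 9189 in rib (-0.28, SE 0.09, limma adjusted p = 0.0491), and lost the call without any 1 of the 6 samples (adjusted p up to 0.146) and under both median centrings. Sox5 (-0.14, SE 0.09) and Sox6 (0.04, SE 0.12) did not pass. Foxa3 (-1.40, SE 0.13) and Foxa2 (-0.53, SE 0.09), forkhead factors of hypertrophic cartilage, and Trps1 (-0.60, SE 0.09) were lower in nasal. Arid5b, a partner of Sox9, was the gene higher in nasal (1.52, SE 0.09).

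Of 21 hydroxylases and folding helpers 3 were higher in nasal, 3 lower and 15 not past the test, with a median difference of -0.0032. P4ha3 (1.85, SE 0.10) and P4ha1 (0.65, SE 0.11), catalytic chains of prolyl 4-hydroxylase, and Serpinh1, the collagen chaperone HSP47 (0.49, SE 0.08), were higher in nasal. P3h2, a prolyl 3-hydroxylase (-0.84, SE 0.11), Plod3, a lysyl hydroxylase (-0.59, SE 0.10), and Mia3, which helps procollagen leave the endoplasmic reticulum (-0.54, SE 0.09), were lower. Of 14 genes of procollagen processing and cross-linking 6 were higher in nasal and 2 lower, with a median of 0.27. The transglutaminase Tgm2 (1.66, SE 0.09), the lysyl oxidase Lox (1.50, SE 0.24) and the procollagen N-proteinase Adamts2 (1.24, SE 0.13) led the first, and Loxl2 (-1.19, SE 0.11) and the procollagen C-proteinase Bmp1 (-0.38, SE 0.09) were the second.

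Of 18 genes listed as fibril partners 5 were higher in nasal and 3 lower, with a median of 0.16. Not all products of this list are known to lie on fibrils. Matn1 (2.66, SE 0.09), Matn4 (1.80, SE 0.10) and Prelp (0.61, SE 0.10) were higher in nasal, and Comp (-1.50, SE 0.10), Ecrg4 (-1.05, SE 0.09) and the fibril-binding proteoglycan gene Dcn (-0.44, SE 0.12) lower. Of 12 further collagens measured, outside the 8 followed here, 5 were lower in nasal and 1 higher, with a median of -0.33. Col6a2 (-1.14, SE 0.09), Col6a1 (-0.93, SE 0.09) and Col14a1 (-0.92, SE 0.20) were lower, and Col8a1 (1.65, SE 0.19) higher. Of 12 measured collagen receptors and degrading enzymes 5 were higher in nasal and 2 lower, with a median of 0.12. Mmp9, a gelatinase (2.03, SE 0.14), the integrin chain Itgb1 (0.61, SE 0.08) and the collagen uptake receptor Mrc2 (0.48, SE 0.12) were higher, and Itga11 (-0.64, SE 0.14) and the collagen-cleaving cathepsin Ctsk (-0.42, SE 0.13) lower. The adjusted p of every gene said to be higher or lower in these lists was below 0.05 in limma, and the lists themselves were not tested. Other scalings ended the calls of Ctsk (adjusted p 0.0827 after quantile normalization, 0.0938 after cyclic loess and 0.113 when centred on the brighter genes), of Bmp1 and Dcn (0.0709 and 0.0788 when centred on the brighter genes) and of Mrc2 (0.0648 under median centring). Bmp1, Dcn, Col14a1, Mrc2, Itga11 and Ctsk each lost the call without at least 1 of the samples, with adjusted p up to 0.0826, 0.108, 0.0549, 0.0748, 0.0570 and 0.161 in that order. Without nasal replicate 2 or rib replicate 2, 3 receptors and degrading enzymes were higher and 0 lower in nasal, and 3 transcription factors and 3 of the 12 further collagens were lower. Without rib replicate 1, 3 of the receptors and enzymes were higher and 1 lower, and 3 transcription factors were lower; without rib replicate 3 and nasal replicate 3, in turn, 0 and 1 of the receptors and enzymes were lower. The processing genes lower in nasal numbered 1 without nasal replicate 2 or without any 1 rib sample. Centring on the brighter genes gave 6 hydroxylases and helpers and 8 fibril partners higher in nasal, while quantile normalization and cyclic loess each gave 5 fibril partners and 4 processing genes lower. These 3 scalings each left 1 receptor or enzyme lower, and median centring left 3 higher. The trend and robust setting gave 9 fibril partners higher and 4 processing genes lower, and with genes above the median only 8 fibril partners were higher and 5 hydroxylases and helpers lower.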

How the data were processed

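The authors deposited linear intensities of 28451 probe sets on 6 arrays, made from total RNA, and the submitters' processing notes name RMA without a version. Neither the background correction nor the genome build nor a scan date is given in the sources used here. Each array had a mean of 500 after trimming, but 25th percentiles ran from 87.3 to 139.6. The deposited probe set values thus lacked the common distribution that quantile normalization of them would give. Which steps of RMA were run is not known. RefSeq accessions gave 24935 probe sets 1 symbol (GRCm38.p6 table, names only), and the brightest probe set per gene was kept. Values were converted to log2 with no pseudocount. Nasal and rib were compared with limma 3.58.1 (lmFit, eBayes) in R 4.3.3 on all 6 samples with no covariate, and p-values were adjusted over the 19932 genes by the Benjamini-Hochberg method. The pipeline was tested on simulated data. Group intensities printed alone are geometric means, and those with an SD are arithmetic means. Named genes were the 8 members, up to 3 genes past the threshold per direction in each list, the Sox trio and the 2 nearest profiles per member. Spp1, Ibsp, Ihh, Mef2c, Alpl, Acan, Chst11 and the 7 muscle markers were named after their values were seen. The members and lists were chosen with earlier results of these data known. Same-numbered samples did not deviate together (r of -0.02, 0.22 and -0.28 over genes). The number of arrays limits the precision. Promoter windows come from RefSeq, GRCm38.p6. Alternatives covered scaling, variance prior, dim genes, pseudocount, probe sets, replicate block and single samples left out.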

Additional observations from a re-analysis of the deposited data

How the results depend on the processing

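Col2a1, Col9a3 and Col11a2 kept their sign under all 17 alternatives. They passed as lower in nasal after quantile normalization (-0.40, -0.33 and -0.26, in that order of genes), after cyclic loess (-0.48, -0.34 and -0.24), and, with the deposited values -0.25, -0.26 and -0.24, under trend and robust, among genes above the median only and among genes above the 25th percentile only. With a pseudocount of 50, Col2a1 (-0.25) and Col9a3 (-0.26) passed. The count of collagens lower in nasal was thus 3 under 5 alternatives, 2 with the pseudocount and 0 otherwise, and 0 were higher under any. Among genes above the median only, the SE of Col2a1 was 0.0704 and its unadjusted p 0.0052, against 0.0823 and 0.018 over all genes, so the filters changed the fit as well as the number of tests. For the other alternatives the cause was not tested. With the replicate block, Col2a1 had an adjusted p of 0.149 and no call of a collagen changed. Sox9 (adjusted p 0.127), Bmp1 (0.0723), Dcn (0.0820), Mrc2 (0.0535), Itga11 (0.0532) and Ctsk (0.0934) did not pass with it, while the counts over all genes were 1939 higher and 1964 lower in nasal; same-numbered samples share only a number. Signs turned for Col11a1 after quantile normalization (-0.027), cyclic loess (-0.094) and median centring (-0.027), and when centred on the brighter genes for Col9a1 (0.095), Col9a2 (0.010), Col10a1 (0.031) and Col27a1 (0.024). Among related genes, signs turned for Acan after cyclic loess (-0.028) and for Sox6 under median centring (-0.021) and without rib replicate 3 (-0.052, within a range of -0.052 to 0.12 when 1 sample was left out). Leaving out 1 sample gave ranges of -0.20 to 0.0065 for Col9a2, positive without nasal replicate 1, and of -0.016 to 0.073 for Col11a1, negative without nasal replicate 2 (-0.0063) or rib replicate 3 (-0.016). Over all genes, 2746 were higher and 2937 lower in nasal. Leaving out 1 sample gave 1639 to 2596 higher and 1827 to 3168 lower, with 1639 and 1827 without rib replicate 2 and 1953 lower without nasal replicate 2, and centring on the brighter genes gave 4460 higher. Of the chain ratios, cyclic loess moved Col9a1/Col9a3 to 0.13, Col11a1/Col11a2 to 0.15, Col11a1/Col2a1 to 0.39, Col11a2/Col2a1 to 0.24, Col10a1/Col2a1 to 0.30 and Col27a1/Col2a1 to 0.42. Quantile normalization moved Col11a1/Col2a1 to 0.37, Col11a2/Col2a1 to 0.14 and Col27a1/Col2a1 to 0.30.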
